A study of Mus musculus with 37 samples.

Results

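The DNA repair genes described here are 41 mouse genes of the main repair pathways, taken by gene symbol from a table of 24421 symbols, and all 41 were found. They were split by pathway into direct reversal (1 gene), base excision repair (8), nucleotide excision repair (10), mismatch repair (3), homologous recombination (3), the Fanconi anemia pathway (5), damage signaling (3), end joining (5) and translesion synthesis (3). WTS, that is RNA-seq of whole tissue, was made from the upper urinary tract and bladder of wild-type female BALB/c mice given the nitrosamine carcinogen BBN in drinking water for 18 weeks, or tap water. UT names the side with cancer after BBN (11 libraries, of which 10 from 9 mice were compared), UN the side without cancer (7 mice), U the ureter of untreated mice (6 libraries, both ureters of 3 mice), BB the bladder after BBN (10, of which 9 were compared) and B the bladder of the 3 untreated mice. UT 9 was kept out of the comparisons because the study left it out, with no reason found in the sources used here, and BB 6 because the name of its library carries a T. A shared number in UT, UN and BB marks 1 mouse, as it does in U and B. With UT 9 left out, 6 mice have both sides in the comparisons, while UT 5R and UT 5L are 2 sides of 1 mouse.

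Cells remove DNA damage by several routes. Direct reversal takes an alkyl group off a base in a single step, base excision repair cuts out single damaged bases, nucleotide excision repair removes bulky adducts in a short single-stranded patch, and mismatch repair corrects replication errors. Homologous recombination and end joining rejoin broken chromosomes, the Fanconi anemia pathway unhooks crosslinks between strands, and translesion polymerases copy past lesions left in place. Nitrosamines alkylate DNA, and several genes of homologous recombination, the Fanconi anemia pathway, mismatch repair and replication-coupled ligation are known to be transcribed mostly in cells that copy their DNA, often through E2F factors.

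The sequences just upstream of transcription start are shown for Brca2 and Ercc2, which were higher in UT than in U and hold an E2F-type motif there, and for Brca1, the repair gene with the largest difference, which does not. They are the 250 bases before the start (RefSeq, GRCm38.p6), less the bases that GENCODE annotates as exon, 5′ to 3′ on the strand of the gene, with the motif in capitals. For Brca1 57 bases of an exon of the neighbouring gene Nbr1 were left off, and for Ercc2 7 bases of an annotated exon of Ercc2-201. Ercc1 also holds a motif, but its whole window lies within an annotated exon of Ercc1-201 and is not shown. Ercc2 shares 42.4% of its exon bases with other genes, so its level is uncertain, and its call was lost in some settings given below. The first form searched was TTCCCGC. The second was TTGGCGC. Another was TTCGCGC. The last was TTGCCGC. All were searched on both strands, and matches on opposite strands can share bases.
Brca1 (chr11:101551956-101552148, minus strand): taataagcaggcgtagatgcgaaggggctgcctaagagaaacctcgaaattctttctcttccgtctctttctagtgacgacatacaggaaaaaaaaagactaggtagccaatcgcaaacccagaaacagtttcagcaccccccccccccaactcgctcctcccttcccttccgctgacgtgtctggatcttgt
Brca2 (chr5:150522371-150522620, plus strand): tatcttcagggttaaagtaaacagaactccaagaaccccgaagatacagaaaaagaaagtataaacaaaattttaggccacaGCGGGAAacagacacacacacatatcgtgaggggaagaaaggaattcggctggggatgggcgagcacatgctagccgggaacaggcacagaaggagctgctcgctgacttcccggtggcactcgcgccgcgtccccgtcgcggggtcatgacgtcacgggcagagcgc
Ercc2 (chr7:19381767-19382009, plus strand): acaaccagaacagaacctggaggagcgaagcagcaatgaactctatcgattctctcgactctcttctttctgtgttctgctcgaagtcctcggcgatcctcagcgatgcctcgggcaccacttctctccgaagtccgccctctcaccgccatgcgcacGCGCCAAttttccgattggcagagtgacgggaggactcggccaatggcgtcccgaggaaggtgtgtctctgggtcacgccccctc
Promoter sequences were matched for 35 of the 41 genes (not for Xpc, Ddb2, Ercc3, Fancd2, Prkdc and Rev3l), and 11 of the 35 (31.4%) held at least 1 of these motifs, against 9.01% of 27025 genes with a promoter in the table. The 11 were Apex1, Ercc1, Ercc2, Ercc5, Msh3, Brca2, Fancg, Chek2, Xrcc4, Xrcc6 and Lig4. Of the repair genes higher in UT than in U, 3 of 15 with a promoter held a motif (20%), and of the other repair genes 8 of 20 (40%). In the list of 26 proliferation genes used below, 8 of 21 matched promoters held one (38.1%). These matches describe letters in a fixed window of 250 bases only.

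The untreated ureter expressed all 41 repair genes, over a wide range. Levels are given as CPM, read counts scaled to a common library size and adjusted by TMM, a correction for differences in RNA composition between libraries. Per kilobase of annotated exon, so that genes can be compared with each other, the mean level in U was highest for Ddb1, a subunit of the complex that recognizes ultraviolet damage (48.2 CPM per kb), followed by Apex1, the endonuclease that cuts abasic sites (22.1 CPM per kb, with 61.7% of its exon bases shared with Pip4p1 on the other strand), Parp1, the sensor of strand breaks (11.7 CPM per kb), and Xpc, which finds distorted helices (9.86 CPM per kb). The lowest were Brca1 (0.138 CPM per kb), Fancd2 (0.196 CPM per kb), Ung (0.273 CPM per kb) and Brca2 (0.300 CPM per kb). Total counts per library ranged from 12980008 to 18793560 in U, from 4675081 to 14973904 in UN, from 9724542 to 16735797 in UT, from 14348701 to 16617435 in B and from 3557697 to 15104379 in BB. In BB 1, 3 and 4, UN 6 and U 1R the RNA integrity number was under 5. The labelled tissues were checked against 13 urothelial markers (keratins, uroplakins, Epcam, Cdh1 and Trp63), whose summed level was 2249 to 4150 CPM in U, 4207 to 14380 CPM in UT and 21230 to 22410 CPM in B. It was 62.7 CPM in UN 2 and 1902 to 14500 CPM in the other UN libraries, so UN 2 held little RNA of these markers, and counts that rest on UN are also given without it. UT 4 stood apart in kidney tubule markers, which summed to 1640 CPM, and no call in UT against U was lost without it. In such whole-tissue libraries, fewer cells of a type and less RNA per cell cannot be told apart.

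**Figure D1:**
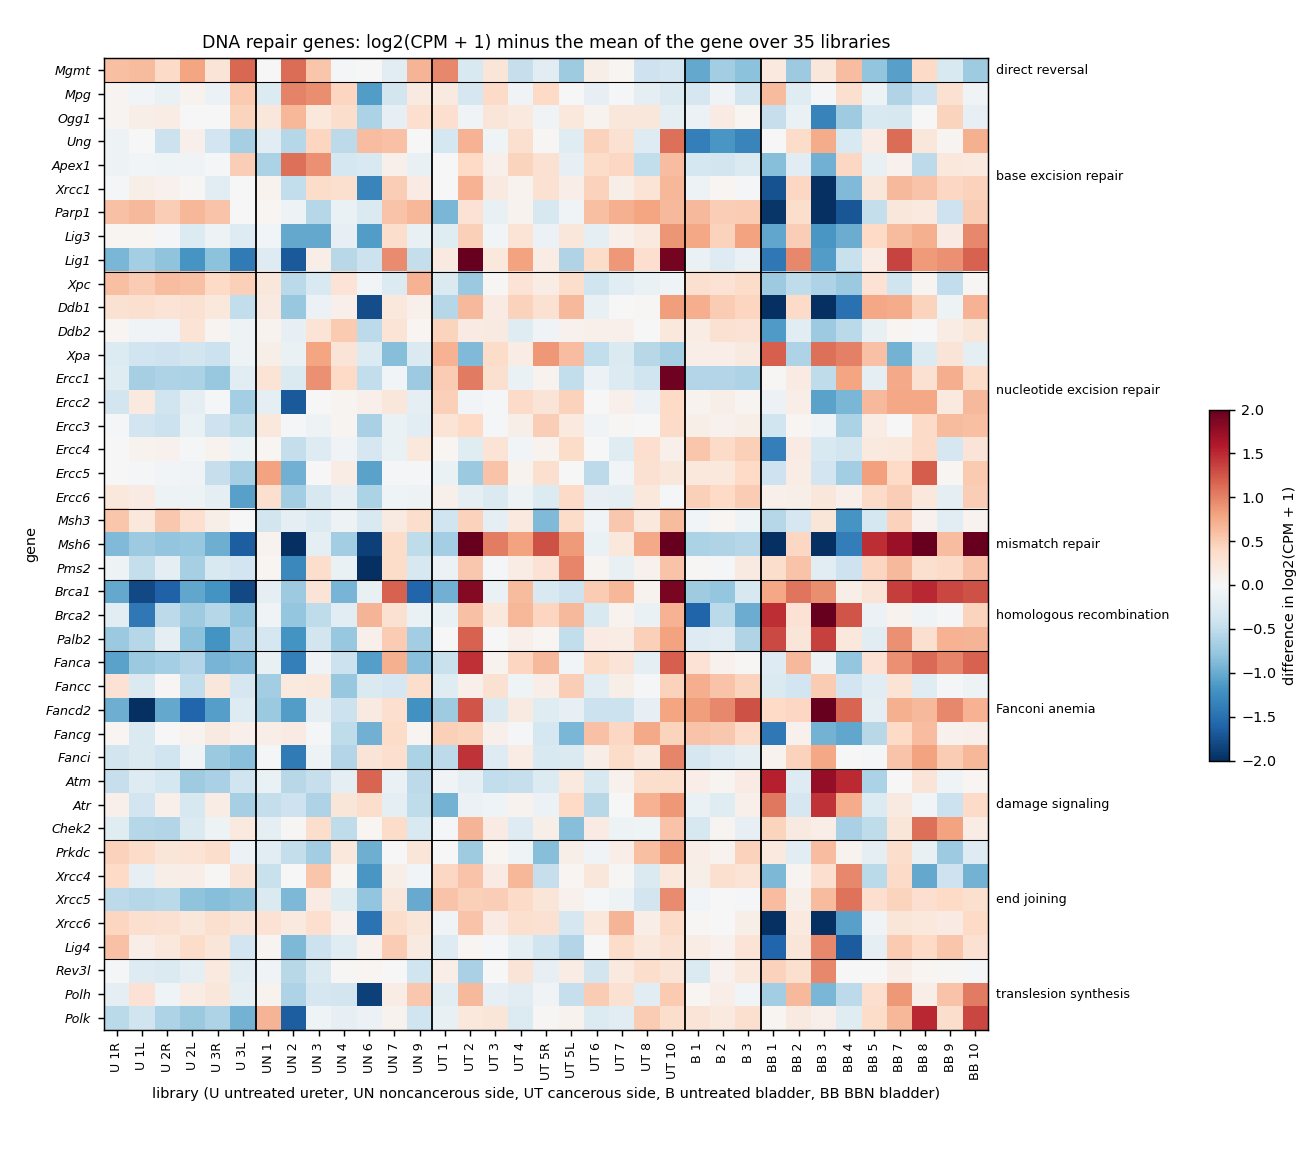
The heatmap shows each of the 41 repair genes (rows, by pathway) in 35 libraries (columns, by group), as the difference of log2(CPM + 1) from the mean of the gene over all 35 libraries, red for higher and blue for lower. Lig1, Msh6, Brca1, Fanca and Fancd2 are blue in most U libraries and red in UT 2 and UT 10, and BB 1, BB 3 and BB 4 stand apart from the other BB libraries.

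The cancerous side of the BBN-treated ureter carried more RNA of 17 of the 41 repair genes than the untreated ureter, and less of 2. The largest differences were in Brca1, Msh6, Lig1, Fancd2 and Fanca, followed by Palb2 and Brca2, all at least 2-fold, and the 2 lower genes were Mgmt and Xpc. Among the 41, all 3 homologous recombination genes, 3 of 5 Fanconi anemia genes, 3 of 8 base excision repair genes and 2 of 3 mismatch repair genes were higher. A gene was called at an adjusted p under 0.1 in edgeR's quasi-likelihood test over all genes. In this comparison 33.8% of the 15276 genes tested were called higher and 27.2% lower, so the share of repair genes called higher (17 of 41) lay a little above that of all genes, and the share called lower (2 of 41) far below it. The median log2 fold change was 0.24 over the 41 genes and 0.09 over all genes. Markers of several tissues also moved between UT and U, with 8 of 13 urothelial and 8 of 10 immune markers called higher, 2 urothelial ones lower, 2 of 6 fibroblast ones higher, and all 7 smooth muscle and all 5 adipocyte markers lower. Their part in the levels of the repair genes was not tested. At 2-fold or more, 7 repair genes were higher and 0 lower, where 18.9% and 14.2% of all genes were called. Each of the 10 compared UT libraries lay above every U library for 6 repair genes (Lig1, Msh6, Brca1, Fanca, Xrcc5 and Polk), against 8.24% of 24199 genes with a count, and below for 1 (Xpc), against 7.6%. With UT 9 as well, 3 of the 6 remained above U (Lig1, Brca1 and Polk, against 5.97% of all genes) and 0 below (5.55%), since UT 9 had 37.9 CPM of Msh6, 3.94 CPM of Fanca and 51.8 CPM of Xpc, inside the range of U, and 18.4 CPM of Xrcc5, under the lowest U library. With all 11 UT libraries, 16 repair genes were called higher (33.9% of all genes), Ung no longer being called, and 2 lower (25.6%).

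Brca1, Brca2 and Palb2, the 3 homologous recombination genes among the 41, rose, while of 15 further genes of this pathway in a wider list 7 were called higher and 3 lower. Brca1, whose protein prepares broken ends for strand exchange, is on chromosome 11 (GRCm38, 101488764 to 101551955, minus strand). Its level ranged from 0.613 to 1.77 CPM in U (median 1.16), from 0.891 to 11.8 CPM in UN (median 3.94) and from 1.92 to 20.1 CPM in UT (median 6.0). The lowest UT library, UT 1, lay just above the highest U library, and UT 2 (19.1 CPM) and UT 10 (20.1 CPM) lay far above the rest. The log2 fold change of UT against U was 2.74 ± 0.54 (SE, adjusted p = 0.000498). Brca2, the loader of the recombinase, was between 1.99 and 5.91 CPM in U (median 4.19), between 3.73 and 11.9 CPM in UN (median 6.36) and between 5.56 and 12.1 CPM in UT (median 9.09), and only UT 6 was under the highest U library. Its log2 fold change was 1.12 ± 0.25 (SE, adjusted p = 0.00122). Palb2, which joins the products of these genes, was between 1.55 and 4.13 CPM in U (median 2.63), between 1.56 and 7.4 CPM in UN (median 3.54) and between 3.15 and 12.3 CPM in UT (median 5.42), with UT 5L alone of the 10 inside the range of U, and its log2 fold change was 1.19 ± 0.29 (SE, adjusted p = 0.00239).

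In the Fanconi anemia pathway, Fanca and Fancd2 rose at least 2-fold and Fanci rose less, while Fancc and Fancg did not pass the test. Fanca, a member of the core complex that marks stalled forks, was between 3.55 and 5.36 CPM in U (median 4.48), between 2.71 and 14.7 CPM in UN (median 6.13) and between 6.04 and 25.3 CPM in UT (median 10.8), without overlap in the 10 UT libraries. Its log2 fold change was 1.45 ± 0.29 (SE, adjusted p = 0.000611). Of its annotated exon bases, 10.5% are shared with Zfp276 on the other strand, and the library kit does not mark strand, so these reads cannot be told apart. Fancd2, a target of that complex, was between 0.344 and 3.44 CPM in U (median 1.55), between 1.3 and 5.7 CPM in UN (median 2.94) and between 2.24 and 11.7 CPM in UT (median 3.61). The highest U library, U 3L, lay above 4 UT libraries, and the log2 fold change was 1.57 ± 0.46 (SE, adjusted p = 0.00902), resting on 5 to 45 counts per library in U. Fanci, the partner of Fancd2, had a log2 fold change of 0.81 ± 0.30 (SE, adjusted p = 0.0326), and it shares 16.0% of its exon bases with Polg. The call of Fanci was lost with the libraries of each mouse summed, and those of Fanci and Fancd2 with RNA integrity as a covariate.

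Among the base excision repair genes, Lig1 stood out. Lig1, the ligase that also seals replication fragments, was between 5.7 and 10.1 CPM in U (median 8.79), between 4.57 and 33.3 CPM in UN (median 12.2) and between 10.7 and 70.7 CPM in UT (median 21.8). The 10 UT libraries lay above all U libraries, UT 5L by little, with UT 2 at 70.7 CPM and UT 10 at 66.6 CPM. The log2 fold change was 1.89 ± 0.38 (SE, adjusted p = 0.000547). Ung, which removes uracil from DNA, was between 0.842 and 2.1 CPM in U (median 1.46) and between 1.28 and 5.21 CPM in UT (median 2.27), with overlap. Its log2 fold change of 0.73 ± 0.33 (SE, adjusted p = 0.0752) was no longer called without UT 2, UT 6, UT 10, U 2R, U 3R or U 3L. Xrcc1, the scaffold of single-strand break repair, rose by 0.29 ± 0.12 on the log2 scale (SE, adjusted p = 0.0539), a call that was lost without U 3R. Mpg, Ogg1, Apex1, Parp1 and Lig3 did not pass the test, with log2 fold changes between -0.28 (Parp1) and 0.27 (Lig3). Apex1 shares 61.7% of its exon bases with Pip4p1, Mpg 35.7% with Nprl3, Lig3 25.1% with Rffl and Ogg1 10.6% with Camk1, all on the other strand, so their values are uncertain.

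Msh6, which pairs with its partner to recognize base mismatches, rose most of the mismatch repair genes. Its level was between 20.1 and 39.0 CPM in U (median 36.3), between 12.8 and 84.7 CPM in UN (median 45.5) and between 40.4 and 544 CPM in UT (median 117). UT 2 (544 CPM) and UT 10 (384 CPM) were far above the next library, UT 5R (159 CPM), and UT 1 only just above U. The log2 fold change was 2.34 ± 0.51 (SE, adjusted p = 0.00108). Pms2, a subunit of the mismatch repair endonuclease, rose by 0.67 ± 0.20 on the log2 scale (SE, adjusted p = 0.00947), and Msh3, which recognizes larger loops, had a log2 fold change of -0.19 ± 0.22 (SE, adjusted p = 0.48).

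Of the 10 nucleotide excision repair genes, Ercc1, Ercc2 and Ercc3 rose and Xpc fell, and none of these 4 calls reached 2-fold. Ercc1, a subunit of the nuclease that cuts on the 5′ side of the adduct, was between 12.8 and 19.1 CPM in U (median 14.2), between 13.1 and 43.2 CPM in UN (median 21.4) and between 15.7 and 88.9 CPM in UT (median 22.1), with UT 10 as the highest library. Its log2 fold change was 0.98 ± 0.35 (SE, adjusted p = 0.0252). Ercc2 and Ercc3, the helicases that open the helix, rose by 0.46 ± 0.18 (SE, adjusted p = 0.0415) and 0.50 ± 0.13 (SE, adjusted p = 0.00324) on the log2 scale, and Ercc2 shares 42.4% of its exon bases with Klc3 and the antisense gene Gm26852, so its value is uncertain. Xpc was between 49.3 and 57.4 CPM in U (median 54.7) and between 21.9 and 47.9 CPM in UT (median 34.4), so that the 10 UT libraries lay below all U libraries. Xpc fell by 0.64 on the log2 scale (SE 0.14, adjusted p = 0.00136). The calls of Ercc1 and Ercc2 were lost with the libraries of each mouse summed and with RNA integrity as a covariate. Ddb1, Ddb2, Xpa, Ercc4, Ercc5 and Ercc6 did not pass the test, and Ddb2 shares 23.8% of its exon bases with Acp2.

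Mgmt, the protein that takes alkyl groups off guanine, is on chromosome 7 (GRCm38, 136894614 to 137130266, plus strand) and was the other gene that fell. Its level was between 14.4 and 27.7 CPM in U (median 18.8), between 10.1 and 27.1 CPM in UN (median 11.9) and between 6.91 and 24.1 CPM in UT (median 9.81). Of the 10 UT libraries 9 lay under the lowest U library, and UT 1 (24.1 CPM) lay inside the range of U. Mgmt fell by 0.77 on the log2 scale (SE 0.24, adjusted p = 0.012). The highest Mgmt levels of U and UN were in U 3L (27.7 CPM) and UN 2 (27.1 CPM), which also had the highest summed level of 5 adipocyte markers in their groups (28380 and 28030 CPM). In UT the highest Mgmt level was in UT 1, with an adipocyte sum of 4118 CPM, under those of UT 3 (7695 CPM) and UT 7 (7770 CPM), and UN 6 had 11.9 CPM of Mgmt at an adipocyte sum of 15350 CPM. That sum was 17500 to 28380 CPM in U, 2898 to 28030 CPM in UN and 32.1 to 7770 CPM in UT, and none of the 5 was at 0 in a whole group. The part of adipose tissue in the level of Mgmt was not tested.

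Of the remaining pathways, 1 gene each was higher in UT. Atm, the kinase that signals double-strand breaks, was between 10.1 and 14.2 CPM in U and between 11.9 and 22.2 CPM in UT, with overlap, and rose by 0.42 ± 0.17 on the log2 scale (SE, adjusted p = 0.0451), a call lost without U 2L and with the libraries of each mouse summed. Xrcc5, a subunit of the ring that binds broken ends in end joining, was between 18.8 and 24.1 CPM in U (median 21.4), between 16.9 and 41.3 CPM in UN (median 28.4) and between 26.9 and 67.8 CPM in UT (median 43.7), without overlap of these UT libraries and U. It had the smallest adjusted p of the 41 genes in this comparison, with a log2 fold change of 1.0 ± 0.17 (SE, adjusted p = 0.000175). Its partner in the ring, Xrcc6, had a log2 fold change of -0.07 ± 0.13 (SE, adjusted p = 0.65). Polk, a translesion polymerase, was between 9.88 and 14.8 CPM in U (median 12.6) and between 16.2 and 28.6 CPM in UT (median 20.5), and rose by 0.72 ± 0.15 on the log2 scale (SE, adjusted p = 0.00077). Atr, Chek2, Prkdc, Xrcc4, Lig4, Rev3l and Polh did not pass the test.

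Limits of this comparison lie in the scale and in the 3 untreated mice. With library totals in place of TMM, the median of all genes moved to 0.40 on the log2 scale, and 28 repair genes were called higher (49.2% of all genes) and 1 lower, Mgmt (17.7% of all genes). With the libraries of each mouse summed, 11 were called higher (24% of all genes) and 2 lower (19.8%), the calls of Ung, Xrcc1, Ercc1, Ercc2, Fanci and Atm being lost. With RNA integrity as a covariate, 11 were called higher (24.9%) and 2 lower (21.2%), without Ung, Xrcc1, Ercc1, Ercc2, Fancd2 and Fanci. A single fit with UN called 13 higher (29.4%) and 2 lower (24.7%), without Ung, Xrcc1, Ercc2 and Atm.

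**Figure D2:**
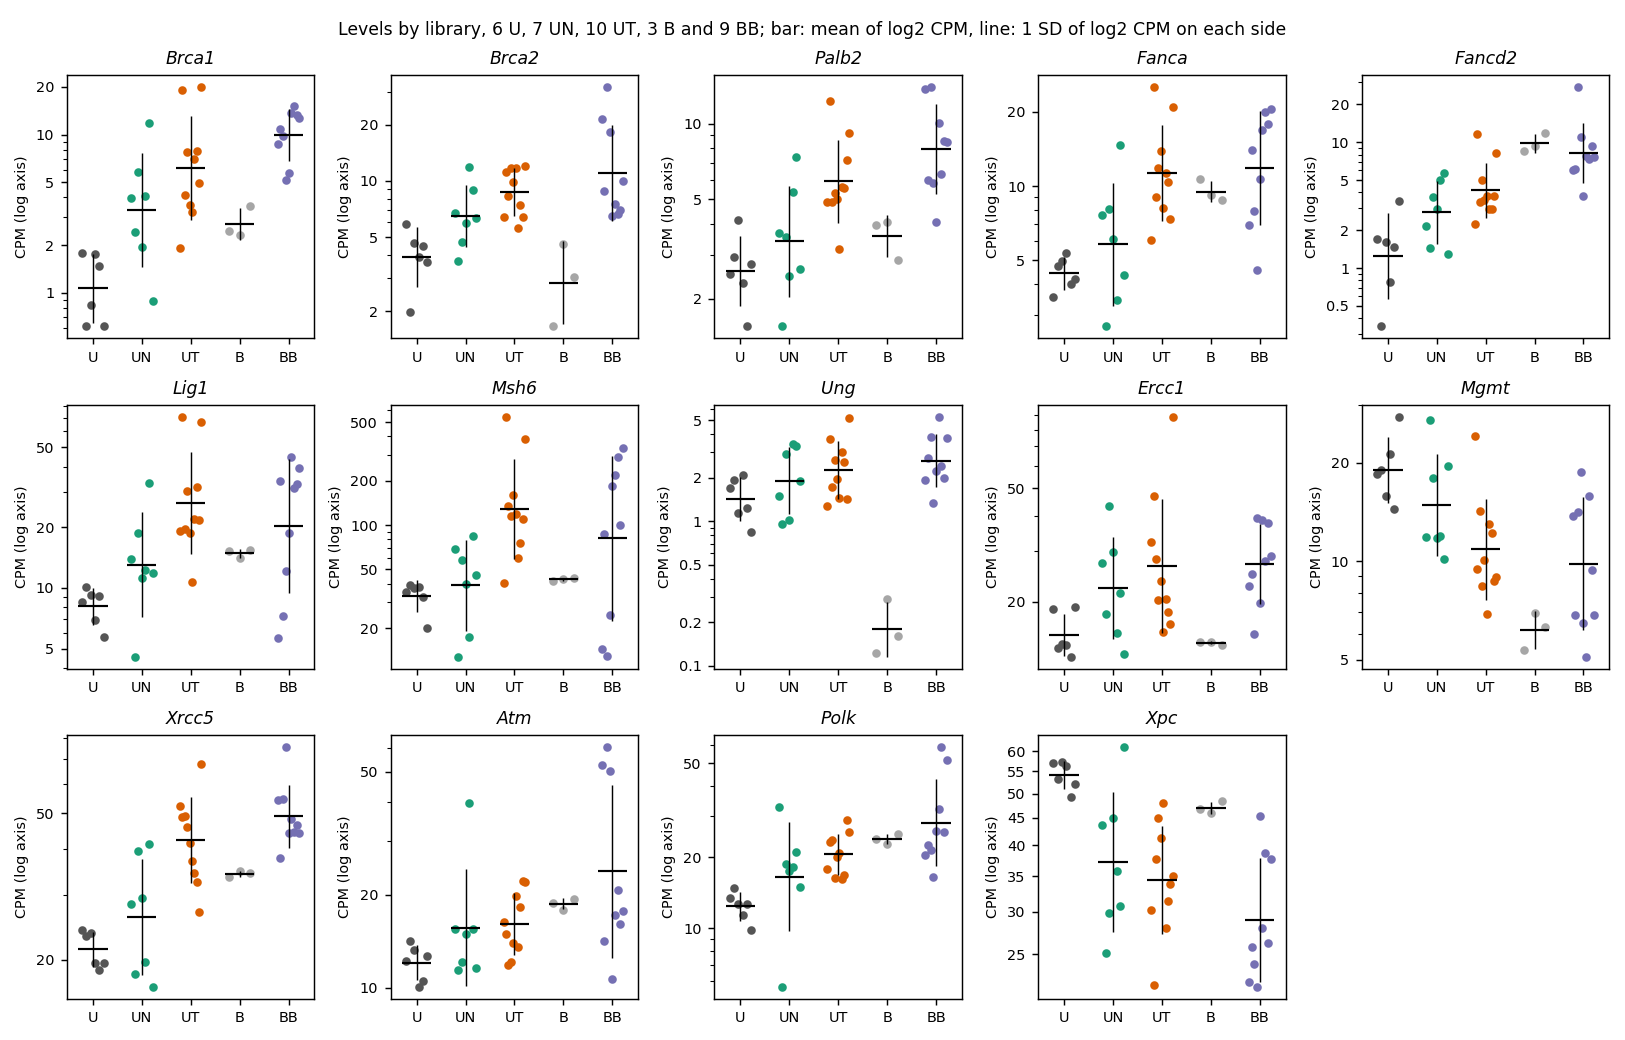
Levels of 14 repair genes are shown in CPM on log axes, a point for each library of U, UN, UT, B and BB, with bars at the mean of log2 CPM and lines of 1 SD of log2 CPM on each side. The 10 UT libraries lie above U without overlap for Brca1, Fanca, Lig1, Msh6, Xrcc5 and Polk and below it for Xpc, and Ung is lowest in the 3 untreated bladders.

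On the noncancerous side of the BBN-treated ureter, 1 repair gene was higher than in untreated ureters and 0 were lower, while 13.3% of 14880 genes were called higher and 5.67% lower. The one gene was Brca1, with a log2 fold change of 1.92 ± 0.54 (SE, adjusted p = 0.0347). Of the 7 UN libraries 6 lay above all U libraries, with UN 7 highest (11.8 CPM), and UN 9 (0.891 CPM) lay inside the range of U. The same untreated ureters serve UN and UT. The median log2 fold change was 0.11 over the repair genes and 0.08 over all genes. Lig1 had a log2 fold change of 0.88 ± 0.34 (SE, adjusted p = 0.106), Ercc1 of 0.64 ± 0.25 (SE, adjusted p = 0.109), Brca2 of 0.77 ± 0.33 (SE, adjusted p = 0.137) and Xpc of -0.47 ± 0.19 (SE, adjusted p = 0.119), and none of these passed the test. At an unadjusted p under 0.05 there were 4 higher genes (Brca1, Brca2, Lig1 and Ercc1) and 2 lower (Xpc and Prkdc, the catalytic subunit of end joining), 6 of 41, where 29.2% of all genes passed in either direction. Without UN 2 there were 9 higher and 2 lower (32.1%). Of the markers, 7 of 10 immune ones were called higher in UN than in U, and 3 of 13 urothelial ones higher and 1 lower. Without UN 2 these counts were 8 immune markers higher, and 5 urothelial ones higher and 2 lower, and 3 of 5 adipocyte markers were called lower. The immune sum was 460 to 870 CPM in U and 420 to 8475 CPM in UN, highest in UN 2. The part of these cells in the difference was not tested.

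Single UN libraries moved these counts. Without UN 2, the library with few urothelial markers, 5 genes were called higher (Brca1, Brca2, Ercc1, Lig1 and Polk, where 16.6% of all genes were called), and 0 lower (7.97%). Without UN 6, of low RNA integrity and the lowest total count, 2 were called higher (Brca1 and Ercc1, 16.3%) and 0 lower (9.15%). Without UN 9 there were 3 higher (Brca1, Ercc1 and Lig1, 16.7%) and 4 lower (Msh3, Parp1, Prkdc and Xpc, 9.64%). Without U 3L, 2 were higher (Brca1 and Fancd2, 12.2%) and 1 lower (Prkdc, 4.96%), which was also called without UN 4 (4.98%), beside Brca1 as the higher gene (13.2%). RLE normalization called 2 higher (13.7% of all genes) and 0 lower (5.49%), DESeq2 4 higher (17%) and 2 lower (7.1%), voom with weights by group 3 higher (12.7%) and 1 lower (12.2%), and a single fit with UT 2 higher (15.1%) and 1 lower (5.63%). With both ureters of each untreated mouse summed, 0 repair genes were called in either direction, where 0.0128% of all genes were called in each.

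The cancerous and noncancerous sides differed in 0 repair genes in either direction. Over all genes, 1 was called higher in UT (0.00665% of 15048) and 0 lower, at the edgeR threshold. At an unadjusted p under 0.05 there were 5 of 41 repair genes, all higher in UT, where 22.9% of all genes passed in either direction. Without UN 2 there were 3, all higher (17.4%). Msh6 had a log2 fold change of 1.87 ± 0.52 (SE, adjusted p = 0.119), Lig1 of 1.0 ± 0.40 (SE, adjusted p = 0.163), Fanca of 0.85 ± 0.35 (SE, adjusted p = 0.17) and Xrcc5 of 0.62 ± 0.21 (SE, adjusted p = 0.129). Lig3, the ligase of single-strand break repair, had one of 0.53 ± 0.23 (SE, adjusted p = 0.179). The difference was positive for 33 of the 41 genes, with a median log2 fold change of 0.25 against -0.01 over all genes, of which 49.4% were positive. With RNA integrity as a covariate the median was 0.08 with 24 of 41 positive, against -0.04 and 45.9% over all genes, and without UT 10 it was 0.16 with 31 of 41 positive, against -0.01 and 48.7%. DESeq2 called 4 of these genes higher (Fanca, Lig1, Msh6 and Xrcc5, where 4.1% of all genes were called higher) and 0 lower (11.4%), and a single fit that shares its spread with the untreated ureters called all 5 higher (6.26%) and 0 lower (12.3%). Without UN 7 the count became 6 (Fanca, Lig1, Lig3, Msh6, Palb2 and Xrcc5, where 5.34% of all genes were called higher), with 0 lower (10.1%). Without UN 3 it became 2 (Msh6 and Xrcc5, 5.35%), with 0 lower (8.98%). Without UN 2 it was 0. UN 3 and UN 7 had the highest level of the proliferation list among the UN libraries.

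Within the 6 mice with both sides, single genes went both ways. Ercc3 and Fancg, a core complex member, were higher in UT than in UN in 6 of 6 mice, as were 1.44% of all genes. Lig1, Parp1, Msh3, Palb2, Fancc, Xrcc5 and Polh were higher in 5 of 6, as were 9.72% of all genes, and 13 genes in 4 of 6, among them Msh6 and Fanca. Brca1, Brca2, Fancd2 and Mgmt were among the 14 genes higher in 3 of 6 mice, and Ung, Xrcc1, Xpc, Xpa and Polk were higher in 2 of 6. Without mouse 2, whose UN library is UN 2, Ercc3, Fancc and Fancg were higher in UT in 5 of 5 mice, as were 2.18% of all genes. With the mouse as a block, 0 of 16476 genes were called in either direction, and the median log2 fold change was 0.24 over the repair genes with 35 of 41 positive, against 0.02 and 51.3% positive over all genes.

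**Figure D3:**
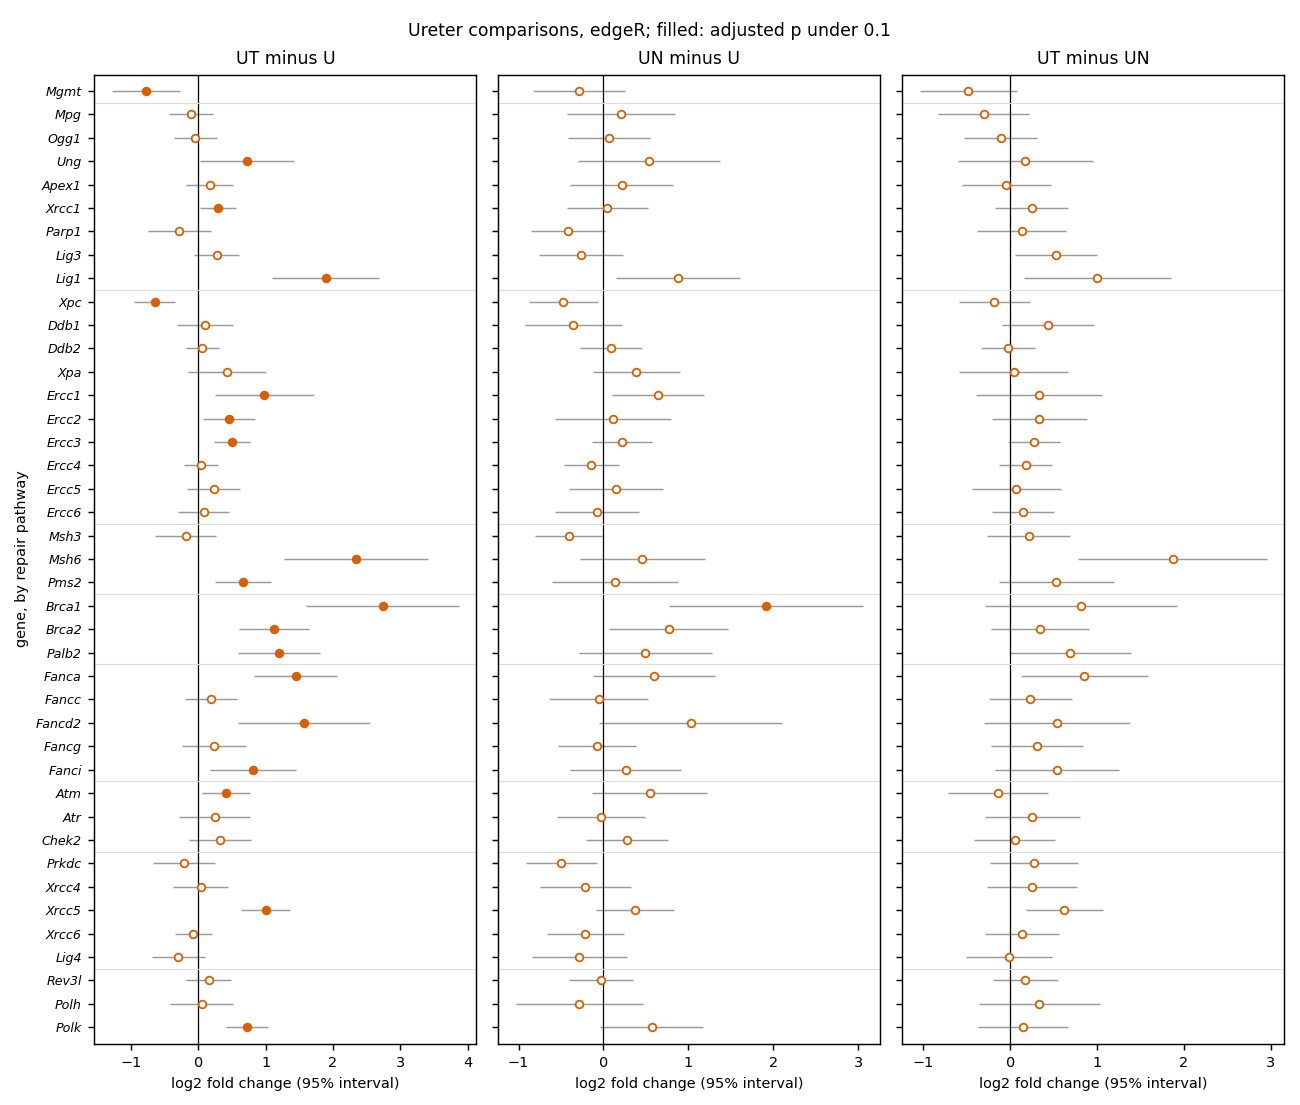
Log2 fold changes of the 41 repair genes with 95% intervals are shown for UT minus U, UN minus U and UT minus UN, filled where the adjusted p was under 0.1. In UT minus U 19 points are filled, against 1 in UN minus U and 0 in UT minus UN.

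The repair genes that differed most were read beside a list of 26 proliferation genes (cyclins, mitotic kinases, MCM helicase subunits and nucleotide synthesis genes), none of them among the 41. Its mean of log2(CPM + 1) in the 6 U libraries was 2.62 with an SD of 0.0534. The 7 UN libraries had a mean of 3.94 and an SD of 0.963, and the 10 UT libraries one of 5.04 with an SD of 0.931. The 3 B libraries lay at 2.77 (SD 0.0248), and the 9 BB libraries at 5.08 (SD 0.706). All 26 genes were called higher in UT than in U, 22 in UN than in U (25 without UN 2), 19 in BB than in B and 0 in UT than in UN. By exact permutation tests, two-sided, UT exceeded U by 2.41 (p = 0.00025). The difference was 1.31 between UN and U (exact permutation test, p = 0.00117), 1.09 between UT and UN (exact permutation test, p = 0.0327) and 2.31 between BB and B (exact permutation test, p = 0.00909). Between U and B it was -0.145 (exact permutation test, p = 0.0238). These tests take each library as a unit, although U and B come from the same 3 mice. With 1 value per mouse, p was 0.00909 for UT against U, 0.0167 for UN against U and 0.00909 for BB against B, the smallest that these exact permutation tests can give, and 0.0255 for UT against UN. For U against B it was 0.1, and 0.25 within mice (exact permutation tests), again the smallest possible, so that design cannot pass the threshold, and U was lower in 3 of 3 mice. Without UN 2 the difference was 1.43 between UN and U (exact permutation test, p = 0.00216) and 0.977 between UT and UN (exact permutation test, p = 0.0669). UT and UN share mice, and within the 6 mice with both sides the list was higher in UT in 4, by 1.12 on average (exact permutation test over mice, p = 0.219), and without mouse 2 in 3 of 5, by 0.667 (exact permutation test, p = 0.438). These p-values were not adjusted for each other. The part of proliferation in the levels of the repair genes was not tested.

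Within the 10 UT libraries, 5 repair genes followed the proliferation list at an adjusted p under 0.1 over 15250 genes (Lig1, Brca1, Fanca, Ung and Fanci), against 2.54% of all genes, and 0 went against it (0.616%). For Lig1, Pearson's r was 0.953 (permutation p = 9e-05, adjusted p = 0.0154) and Spearman's rho 0.855 (permutation p = 0.00301). Without the 2 libraries farthest from the median of the list, UT 2 and UT 10, r was 0.842. Brca1 had an r of 0.920 (permutation p = 0.00047, adjusted p = 0.0394) and a rho of 0.879 (permutation p = 0.00172), and r was 0.745 without these libraries. Fanca had an r of 0.920 (permutation p = 0.0004, adjusted p = 0.0359) and a rho of 0.903 (permutation p = 0.00072), and r was 0.735 without them. For Ung, r was 0.901 (permutation p = 0.00024, adjusted p = 0.026), rho 0.879 (permutation p = 0.00148) and r without them 0.802. Fanci had an r of 0.869 (permutation p = 0.00161, adjusted p = 0.074) and a rho of 0.745 (permutation p = 0.0174), and r fell to 0.541. By rank, 2 repair genes were called positive, Fanca (adjusted p = 0.0915, by permutation) and Xrcc6 (adjusted p = 0.0654), against 0.807% of all genes, and 0 negative (0.105%). The calls of Lig1, Brca1, Ung and Fanci were lost by rank, with adjusted p-values of 0.166, 0.13, 0.125 and 0.357 (permutation). The median r over the 41 genes was 0.401, against -0.0256 over all genes, and 0.0713 without UT 2 and UT 10. These 2 libraries were chosen by their distance on the list, and leaving them out narrows its range. The median over all genes without them was not computed, so this drop does not show that the relation rested on them. Mgmt had an r of -0.216 (permutation p = 0.553). UT 5R and UT 5L share a mouse. Within the 7 UN libraries 0 repair genes were called over all genes, where 0% of 14854 genes were, and 5 of 41 had an unadjusted p under 0.05, all positive, as did 5.91% of all genes. The median r in UN was 0.327 over the 41 genes, 33 of them positive, against 0.075 over all genes. Without UN 7 and UN 3, the 2 farthest there, it was 0.257 over the repair genes. With UN 2 left out, the adjusted test still called 0, and 4 genes, all positive, were under 0.05 before adjustment, as were 6.07% of all genes.

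**Figure D4:**
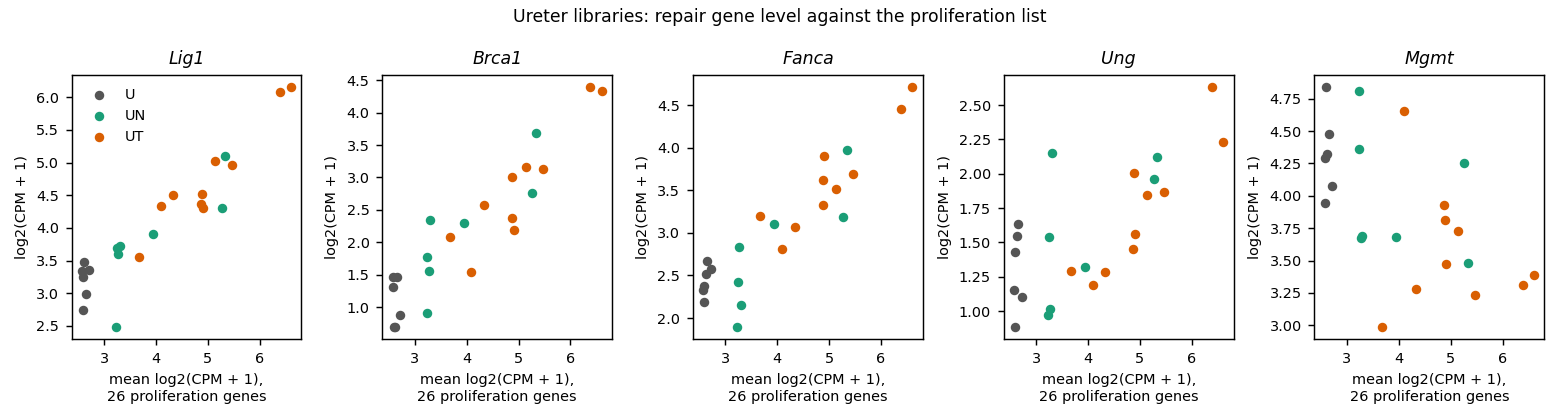
The level of Lig1, Brca1, Fanca, Ung and Mgmt, as log2(CPM + 1), is plotted against the mean of log2(CPM + 1) over the 26 proliferation genes, a point for each ureter library, coloured by U, UN and UT. UT 2 and UT 10 lie at the far right in each panel, and the U libraries lie at the left within a narrow range of the list.

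Untreated ureter and untreated bladder already differed in 23 of the 41 repair genes. In the ureter 7 were higher (Mgmt, Ung, Apex1, Mpg, Msh3, Xpc and Xrcc6) and 16 were lower, where 31.7% of 15318 genes were called higher and 33% lower. Ung was between 0.842 and 2.1 CPM in U and at 0.123, 0.290 and 0.161 CPM in the 3 B libraries, with a log2 fold change of 2.97 ± 0.46 (SE, adjusted p = 0.000144). Mgmt was between 14.4 and 27.7 CPM in U and at 5.35, 6.95 and 6.31 CPM in B, with one of 1.72 ± 0.22 (SE, adjusted p = 2.56e-05). Fancd2 was the gene most in favour of the bladder, at 8.48, 9.36 and 11.9 CPM in B against at most 3.44 CPM in U, with a log2 fold change of -2.6 ± 0.41 (SE, adjusted p = 0.000164) and the same few counts in U. At 2-fold or more, 2 genes were higher in U (15.7% of all genes) and 3 lower (14.3%). Brca1 and Fanca were, with Fancd2, the 3 lower ones, with log2 fold changes of -1.17 ± 0.36 (SE, adjusted p = 0.0142) and -1.02 ± 0.16 (SE, adjusted p = 0.000179). The others lower in U were Lig1, Lig3, Xpa, Ercc3, Ercc4, Ercc5, Ercc6, Pms2, Fancc, Fancg, Atm, Xrcc5 and Polk, with log2 fold changes between -0.87 (Polk) and -0.36 (Ercc3). With library totals in place of TMM the split was 2 higher, Mgmt and Ung (19.8% of all genes), and 27 lower (53%), with the median of all genes at -0.40. With the mouse as a block, 7 were higher (31%) and 17 lower (32.3%). The adipocyte markers summed to 17500 to 28380 CPM in U and 351 to 979 CPM in B, and the urothelial markers to 2249 to 4150 CPM and 21230 to 22410 CPM. The part of these tissues in the difference was not tested.

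In the bladder, BBN treatment went with a rise of 6 repair genes (Ung, Brca2, Brca1, Palb2, Ercc1 and Fanci), and 0 fell, where 7.3% of 17984 genes were called higher and 6.08% lower. Brca1, Brca2 and Palb2 were among them, while of the 15 further homologous recombination genes 3 were called higher and 0 lower, with a median log2 fold change of 0.11. At 2-fold or more there were 5 higher (7.08% of all genes) and 0 lower (5.47%). At an unadjusted p under 0.05, 7 were higher (Xrcc5 in addition) and 2 lower (Fancc and Xpc), 9 of 41, where 28.3% of all genes passed in either direction. Brca1 was at 2.46, 2.32 and 3.53 CPM in B and between 5.15 and 15.1 CPM in BB (median 10.9), without overlap, with a log2 fold change of 2.0 ± 0.42 (SE, adjusted p = 0.00814). Brca2 was at 1.66, 4.58 and 3.05 CPM in B and between 6.46 and 32.1 CPM in BB (median 8.83), with a log2 fold change of 2.14 ± 0.62 (SE, adjusted p = 0.0473). Palb2 was at 3.94, 4.05 and 2.86 CPM in B and between 4.04 and 14.1 CPM in BB (median 8.45), where the lowest library, BB 5, touched the range of B, and its log2 fold change was 1.31 ± 0.44 (SE, adjusted p = 0.0843). Ercc1 was at 14.5, 14.5 and 14.2 CPM in B and between 15.4 and 39.2 CPM in BB (median 27.8), with a log2 fold change of 1.06 ± 0.31 (SE, adjusted p = 0.0511). Fanci had one of 0.86 ± 0.29 (SE, adjusted p = 0.081). The median log2 fold change was 0.30 over the repair genes and 0.23 over all genes. Of the markers, 5 of 13 urothelial ones were called lower in BB than in B and 1 higher, and 2 of 6 fibroblast ones lower. The urothelial sum was 2995 to 17590 CPM in BB and 21230 to 22410 CPM in B, and the fibroblast sum 624 to 4008 CPM and 4364 to 6289 CPM. None of 7 smooth muscle markers was called, with sums of 1511 to 5545 CPM and 8011 to 9606 CPM. The part of these cells in the difference was not tested.

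Ung showed the largest difference in the bladder. It was at 0.123, 0.290 and 0.161 CPM in B, from 2, 5 and 3 counts, and between 1.34 and 5.29 CPM in BB (median 2.41), without overlap, with a log2 fold change of 3.90 ± 0.73 (SE, adjusted p = 0.00405). The pooled level of BB (325 counts) was 15.5 times that of B (10 counts), with a 95% interval of 8.33 to 32.7 that covers counting error only. In the ureter Ung was between 0.962 and 3.45 CPM in UN (median 1.9) against 0.842 to 2.1 CPM in U, with overlap. The effect of BBN on the noncancerous ureter minus that on the bladder was -3.39 ± 0.72 for Ung on the log2 scale (SE, adjusted p = 0.0149 for the interaction), and Ung was the only repair gene called in this test, with 0 higher, where 1.65% of 18757 genes were higher and 0.682% lower. At an unadjusted p under 0.05 there were 3 genes, all lower (Ung, Brca2 and Mgmt), where 12.3% of all genes passed in either direction. Without UN 2 the difference for Ung was -3.26 ± 0.70 (SE, adjusted p = 0.013), again the only call among the repair genes, with 2.46% of all genes higher and 0.86% lower. UN and BB share mice, as do U and B, and with the mouse as a block it was -3.47 ± 0.70 (SE, adjusted p = 0.0151), once more the only call, with 3.41% of all genes higher and 2.38% lower. The interval of the difference was -1.56 to 1.35 for Brca1, which includes differences of over 2-fold in either direction. The 3 untreated bladders had the lowest Ung levels of the 35 libraries, and the BBN-treated groups overlapped, with a mean of 2.15 CPM in UN (SD 1.07), 2.5 CPM in UT (SD 1.23) and 2.84 CPM in BB (SD 1.24).

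The low-integrity libraries BB 1, BB 3 and BB 4 stood apart in many genes, repair genes among them. All 9 BB libraries lay above all B libraries for 6 repair genes (Ung, Ercc1, Brca1, Brca2, Fanci and Xrcc5), against 5.54% of all genes, and below for 2 (Xpc and Ercc4), against 9.07%. Atm was at 52.5, 60.3 and 50.4 CPM in the low-integrity libraries and between 10.7 and 20.7 CPM in the other 6, Brca2 between 18.4 and 32.1 CPM against 6.46 to 9.97 CPM, and Atr, the kinase of stalled forks, between 31.6 and 52.2 CPM against 13.4 to 24.5 CPM. Msh6 was at 14.3, 12.8 and 24.4 CPM in them and between 87.2 and 334 CPM in the other 6, where B was at 41.8, 42.8 and 43.7 CPM. In all, 5 repair genes lay above and 17 below in these 3 libraries without overlap, where 29.8% and 21% of all genes did. Without them, 14 repair genes were called higher than in B (22.8% of all genes) and 1 lower, Fancc (19%). The 14 were Ung, Msh6, Brca1, Brca2, Lig1, Ercc1, Palb2, Fanci, Fanca, Polh, Ercc2, Xrcc1, Pms2 and Xrcc5. Msh6 had a log2 fold change of 2.30 ± 0.44 (SE, adjusted p = 0.00305) there and Lig1 of 1.22 ± 0.24 (SE, adjusted p = 0.00359), against 1.78 ± 0.94 (SE, adjusted p = 0.219) and 0.83 ± 0.55 (SE, adjusted p = 0.324) with all 9. Brca2 had one of 1.37 ± 0.33 (SE, adjusted p = 0.0108).

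The bladder calls were fewer when a control was left out. Without any 1 of B 1, B 2 and B 3, only Brca1 and Ung of the 6 were called and 0 repair genes lower, where the share of all genes fell too. It was 2.69% higher and 2.5% lower without B 1, 2.75% and 2.64% without B 2, and 2.73% and 2.6% without B 3. The call of Palb2 was also lost without BB 7, BB 9 or BB 10, and that of Fanci without BB 2 or BB 8. DESeq2 called 9 higher (27.2% of all genes) and 2 lower (8.27%), and voom with weights by group 11 higher (20.7%) and 7 lower (22.3%). With the 10th bladder added, 4 were called higher (7.72%), without Fanci and Palb2, and 0 lower (6.18%). At an adjusted p under 0.05 there were 3 higher (4.85%) and 0 lower (4.2%), without a filter on low counts 3 higher (4.46%) and 0 lower (3.88%), and with library totals 3 higher (5.34%) and 0 lower (5.17%). With the library code range as a covariate 7 were higher (22.9%) and 1 lower, Xpc (9.42%). The median of the repair genes was 0.06 with library totals, against -0.01 over all genes.

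**Figure D5:**
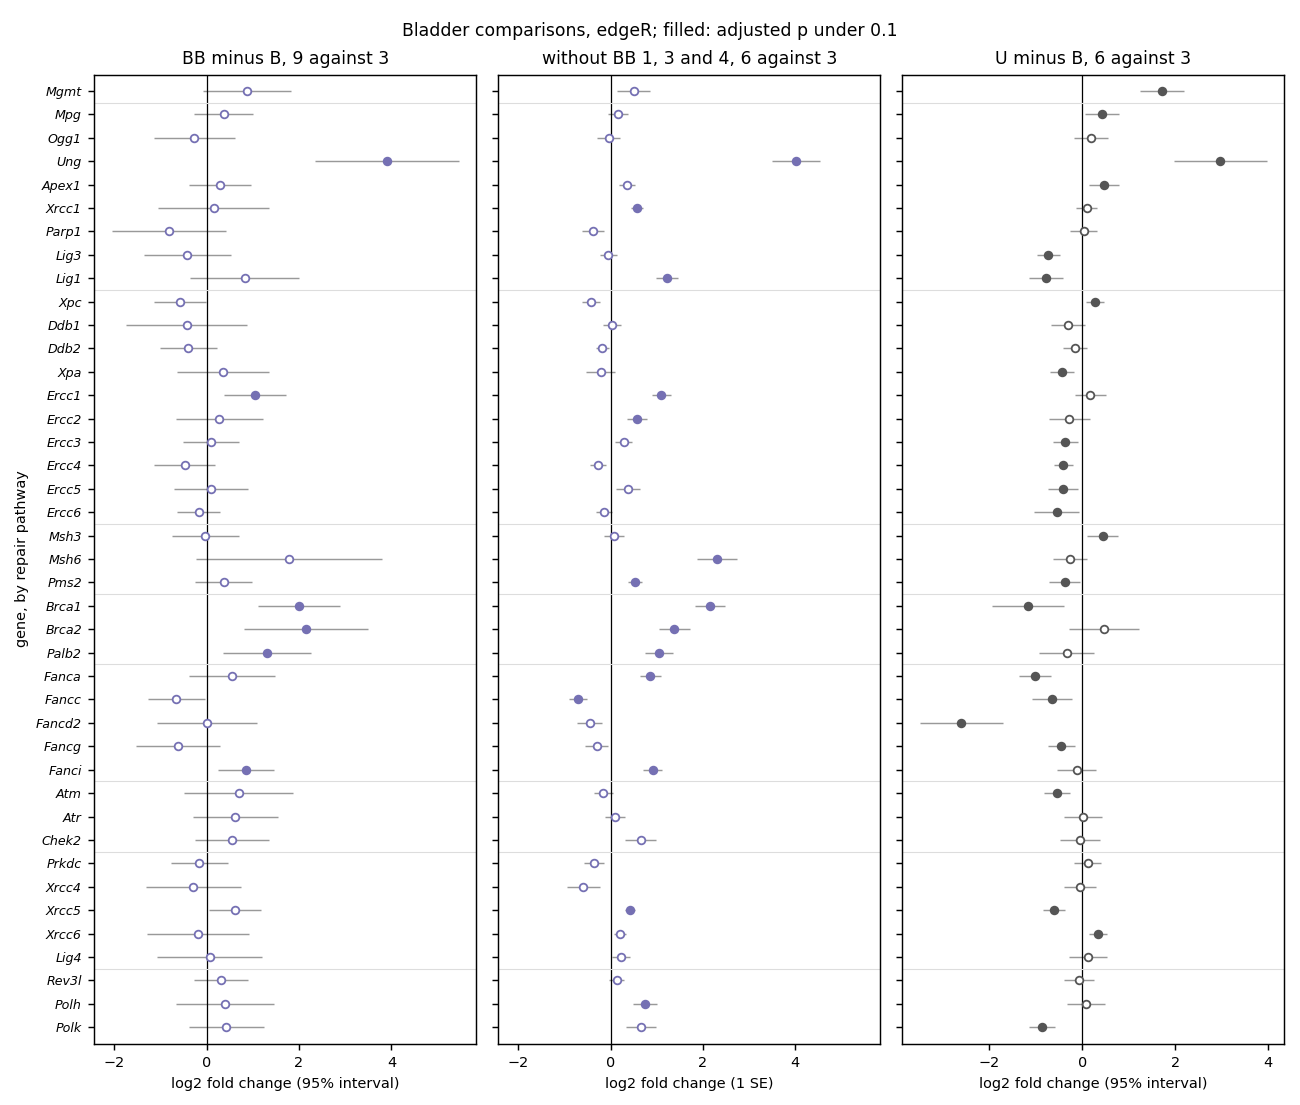
Log2 fold changes of the 41 repair genes are shown for BB minus B with 9 BB libraries (95% intervals), for the same without BB 1, BB 3 and BB 4 (lines of 1 SE) and for U minus B (95% intervals), filled where the adjusted p was under 0.1. Ung has the largest difference in the first panel, 6 points are filled there, 15 in the second and 23 in the third, where Ung is far right and Fancd2 far left.

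A wider list held 81 other repair genes. In UT against U 30 were higher and 10 lower, in UN against U 8 higher and 2 lower of 79 tested (12 and 3 without UN 2), in UT against UN 0 in either direction, in BB against B 7 higher and 0 lower, and in U against B 25 higher and 22 lower of 77 tested. The interaction called 0. Over all genes the shares called higher and lower were 33.8% and 27.2% in UT against U, 13.3% and 5.67% in UN against U, 7.3% and 6.08% in BB against B, and 31.7% and 33% in U against B. The largest differences in UT against U were in Neil3, a glycosylase of replicating cells (log2 fold change 4.06 ± 0.68, SE, adjusted p = 0.000133), Exo1, the exonuclease of mismatch repair and end resection (3.84 ± 0.59, SE, adjusted p = 6.19e-05), and Ube2t, the ubiquitin-conjugating enzyme of the Fanconi anemia pathway (3.18 ± 0.43, SE, adjusted p = 1.96e-05). All 3 were at most 1.26 CPM in U and between 1.36 and 27.5 CPM in UT. In UN against U the largest were Exo1 (2.6 ± 0.74, SE, adjusted p = 0.0365), Ube2t (2.36 ± 0.54, SE, adjusted p = 0.0161) and Clspn, the adaptor of checkpoint signaling (2.1 ± 0.52, SE, adjusted p = 0.0219), and in BB against B Clspn (4.65 ± 0.68, SE, adjusted p = 0.000762), Exo1 (4.17 ± 0.70, SE, adjusted p = 0.00199) and Polq, the polymerase of microhomology end joining (4.15 ± 1.05, SE, adjusted p = 0.0235). Between the untreated tissues they were Neil2, a glycosylase of oxidized bases (1.90 ± 0.37, SE, adjusted p = 0.000805), Rbbp8, which starts end resection (-1.89 ± 0.14, SE, adjusted p = 3.47e-07), and Fancb, a core complex member (-1.48 ± 0.25, SE, adjusted p = 0.000253).

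Targets of p53, the transcription factor that answers DNA damage, were read beside the repair genes. Of 19 such genes, UT against U had 13 higher and 2 lower, 8 were higher and 2 lower in UN against U (10 and 1 without UN 2), 0 in either direction in UT against UN, and 1 higher and 0 lower in BB against B. Between the untreated tissues 3 were higher in U and 11 lower. The shares of all genes called were 33.8% higher and 27.2% lower in UT against U, 13.3% and 5.67% in UN against U (16.6% and 7.97% without UN 2), 7.3% and 6.08% in BB against B, and 31.7% and 33% between the untreated tissues.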

How the data were processed

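WTS libraries were made from total RNA with the SMARTer and Nextera XT kits, which do not mark strand. The authors mapped the reads to GRCm38/mm10 and deposited estimated counts by gene symbol, without normalization, of which 21.1% of the nonzero values were fractional. The submitters' processing notes list TopHat2 2.1.1 and Cuffdiff 2.2.1, and the program that made the counts is not given in the sources used here.

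Counts were rounded to whole numbers and tested with edgeR 4.0.16 in R 4.3.3 (TMM, filterByExpr, quasi-likelihood test, Benjamini-Hochberg adjustment over all genes tested). Each comparison was fitted on its own groups. The common dispersion was 0.0348 in U and 0.0211 in B against 0.190 in UT, 0.278 in UN and 0.358 in BB. UT 9 and BB 6 were left out of the fits. Printed CPM were scaled to TMM library sizes over all 37 libraries. Single values were compared by exact permutation tests, and correlations by permutation (100000 resamples in UT, exact in UN), adjusted over all genes tested rather than over the 41 as first planned. On simulated counts, edgeR recovered 85.7% of genes changed 4-fold and 48.5% of those changed 2-fold with the group sizes of UT against U, 86.6% and 32% in UN against U, 75.3% and 33.3% in UT against UN, 99% and 75.3% in U against B, and 16.3% and 0% in BB against B. Each simulated gene had the same spread in both groups, and libraries were drawn as independent. The real groups differ in spread and some libraries share a mouse, so these rates describe the simulated counts only.

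UT, UN and BB libraries of the same number share a mouse, as do U and B. The deviations from the group means of UT and UN of the same mouse correlated with a median r of -0.0348 over 6 pairs (-0.00967 over 64 pairs of different mice), those of U and B with 0.0288 over 3 pairs, and those of UN and BB with -0.112 over 6 pairs (0.148 over 57 pairs of different mice). Nothing in the labels says that the 2 ureters of an untreated mouse are independent, so p-values over U libraries may measure spread within mice.

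The members and the gene lists were chosen with earlier results of these data known. All 41 genes were tested in every comparison. Genes called with a log2 fold change of at least 1 within ureter or bladder, Mgmt, and the gene of smallest adjusted p in pathways with none (13 genes) are described by the lowest, median and highest library of a group and plotted by library. Xpc and Atr were added after their values were seen. Gene coordinates and exon overlaps are from GENCODE vM21 (GRCm38). Alternatives were RLE normalization, DESeq2 1.42.0, limma 3.58.1 (voom with weights by group), no filter, a stricter threshold, a single fit of the ureter groups, libraries summed by mouse, the mouse as a block, RNA integrity and library code range as covariates, all 11 UT or 10 BB libraries, low-integrity libraries left out, and each library left out in turn. Library totals without TMM, rank correlations, all 11 UT libraries in the overlap of groups, the mouse as a block in the interaction, the proliferation list within mice and with 1 value per mouse, and leaving out libraries for this list or UN 2 for other lists were chosen after seeing the data. The later range of library codes holds 2 UT, 1 UN and no U library, so no ureter comparison was made within it.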

Additional observations from a re-analysis of the deposited data

Results flagged for a closer look

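In groups of 6 to 10 libraries, 12 single values of the 41 repair genes lay far from the rest of their group by Dixon's criterion, over 164 groups, where chance gives about 1 in 20. Of these, 7 were in U 3L. Mpg (26.1 CPM, next 18.8), Ogg1 (8.96 CPM, next 7.12) and Apex1 (43.2 CPM, next 29.8) were highest there, and Parp1 (43.2 CPM, next 61.4), Ddb1 (193 CPM, next 315), Ercc6 (7.65 CPM, next 15) and Msh6 (20.1 CPM, next 32.7) lowest. U 3L also had the highest adipocyte sum of U. In UN 6, which had low RNA integrity and the lowest total of the ureter libraries, Atm was highest (39.8 CPM, next 15.6) and Xrcc6 lowest (10.7 CPM, next 33.6). In UN 2, Ercc2 was lowest (1.62 CPM, next 6.36). In the low-integrity bladders, Ercc4 was lowest in BB 1 (7.7 CPM, next 16.4) and Rev3l highest in BB 3 (41.9 CPM, next 29.4). The causes were not tested.

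The effect of BBN differed between ureter and bladder for Ung, by -3.39 on the log2 scale in the interaction test, and the value rests on 10 counts in the 3 untreated bladders.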

How the results depend on the processing

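Counts of repair genes called are given as higher and lower, with the share of all genes called in brackets. For UT against U they were 7 and 0 at 2-fold or more (18.9% and 14.2%) and 28 and 1 with library totals (49.2% and 17.7%). The higher count was 11 with the libraries of a mouse summed (24%) and 11 with RNA integrity as a covariate (24.9%). For UN against U the higher count was 2 with RLE (13.7%), 4 with DESeq2 (17%) and 3 with voom (12.7%). It was 2 in a single fit (15.1%) and 0 with mouse sums (0.0128%). The lower count was 2 with DESeq2 (7.1%), 1 with voom (12.2%) and 1 in the single fit (5.63%). For UT against UN, DESeq2 called 4 higher (4.1%) and the single fit 5 (6.26%). For BB against B the higher count was 3 at an adjusted p under 0.05 (4.85%), 3 without a filter (4.46%) and 3 with library totals (5.34%). It was 4 with the 10th bladder (7.72%), 11 with voom (20.7%) and 14 without low-integrity libraries (22.8%). The lower count was 2 with DESeq2 (8.27%), 7 with voom (22.3%), 1 with code range as a covariate (9.42%) and 1 without low-integrity libraries (19%). For U against B they were 2 and 3 at 2-fold or more (15.7% and 14.3%) and 2 and 27 with library totals (19.8% and 53%). With library totals Xrcc6 (log2 fold change -0.038) and Xpc (log2 fold change -0.104) changed direction. By rank, 2 genes followed the proliferation list in UT (0.807%). The median log2 fold change over the repair genes ranged from 0.20 to 0.56 in UT against U, 0.07 to 0.22 in UN against U, 0.08 to 0.44 in UT against UN, 0.06 to 0.38 in BB against B and -0.54 to -0.12 in U against B, over all settings tried, and library totals moved it furthest in each of these 5.

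Leaving out 1 library gave 15 to 18 higher and 2 to 3 lower in UT against U, 1 to 5 and 0 to 4 in UN against U, 0 to 6 higher in UT against UN, 2 to 6 and 0 to 1 in BB against B, and 6 to 8 and 13 to 18 in U against B. In UT against UN 0 repair genes were called lower in every such fit. The shares of all genes called higher ranged from 31.1% to 34.3%, 8.43% to 16.7%, 0% to 5.35%, 2.69% to 10.4% and 27.8% to 34.1% in the same order. Those called lower ranged from 25.22% to 28.25%, 2.45% to 9.64%, 0% to 10.1%, 2.5% to 8.67% and 29% to 35.9%, again in this order. The proliferation difference was 0.921 to 1.33 between UT and UN, and -0.163 to -0.131 between U and B. Of 50 gene calls, 39 were kept in every such fit and all 50 with DESeq2, RLE and voom. With the mouse as a replicate block, 0 genes were called in UT against UN in either direction and 7 higher and 17 lower in U against B, and the proliferation difference of UT against UN was 1.12 within mice, no longer past the threshold. That of U against B (-0.145) also failed it with 1 value per mouse and within the 3 mice, where it could not pass. The causes were not tested. Depth limits Ung in untreated bladders (10 counts) and, in U, Brca1 (8 to 25 counts per library), Fancd2 (5 to 45) and Ung (11 to 30).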
